A study of Mus musculus with 4 samples.

Results

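Trimethylation of lysine 4 on histone H3 (H3K4me3), mapped by chromatin immunoprecipitation and sequencing in mouse cortex, left 524 peaks that lay in exons but far from any annotated start of transcription. These exonic peaks were taken from the replicated list of 25446 peaks, of which they formed 2.06%. A peak was counted when it overlapped an annotated exon of any kind by at least 1 base, touched no window of 1000 bases either side of any transcript start, and lay over 5000 bases from the nearest transcript start of a protein-coding gene. Position alone chose them, and no value of enrichment, base composition or presence in the single pools entered the rule. A wide peak reaches an exon by 1 base more readily than a narrow one. Width, and traits that go with it, were therefore not wholly free of the rule. The tissue was left cerebral cortex of adult female B6CASTF1/J mice, the first-generation hybrids of C57BL/6J and CAST/EiJ, aged 2 months. No treatment or mutation was named, and there was 1 condition. Pool J and pool I, the 2 biological replicates, combined 4 biosamples apiece, and each gave 2 libraries as technical replicates, 4 libraries in all. All 4 libraries shared a single donor record, so the spread between the pools may be technical in part. The labels gave no read depth, and the number of reads behind each peak is unknown.

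H3K4me3 is deposited by enzymes of the SET1 and MLL families and is the usual mark of active and poised promoters. Several of these enzymes, or proteins bound to them, recognise unmethylated CpG, the cytosine-guanine step that methylation has thinned out of most vertebrate DNA and that remains dense in CpG islands. Some CpG islands lie inside genes, away from the known start, and have been described in other tissues as alternative promoters, as starts of non-coding transcripts or as islands with no known function. A mark on an exon can also be the far end of a broad domain that spreads from a promoter, as happens at genes of cell identity.

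Sequences of 5 exonic peaks give examples rich and poor in CpG, and do not show the typical peak. Each is 300 bases of the mm10 plus strand from the RefSeq GRCm38.p6 sequence, written 5′ to 3′ in lower case with every CpG in capitals, and each lies within its peak. The windows in Fgf23, Klhl31 and Trim14 were wholly coding sequence and held 33, 35 and 46 CpG.
Fgf23 chr6:127080126-127080425: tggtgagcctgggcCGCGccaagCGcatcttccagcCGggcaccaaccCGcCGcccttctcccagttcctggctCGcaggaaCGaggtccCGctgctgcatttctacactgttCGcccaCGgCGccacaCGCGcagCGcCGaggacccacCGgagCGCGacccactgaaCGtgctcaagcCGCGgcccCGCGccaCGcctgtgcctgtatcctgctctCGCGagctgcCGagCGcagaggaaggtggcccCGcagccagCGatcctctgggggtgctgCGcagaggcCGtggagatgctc
Klhl31 chr9:77655482-77655781: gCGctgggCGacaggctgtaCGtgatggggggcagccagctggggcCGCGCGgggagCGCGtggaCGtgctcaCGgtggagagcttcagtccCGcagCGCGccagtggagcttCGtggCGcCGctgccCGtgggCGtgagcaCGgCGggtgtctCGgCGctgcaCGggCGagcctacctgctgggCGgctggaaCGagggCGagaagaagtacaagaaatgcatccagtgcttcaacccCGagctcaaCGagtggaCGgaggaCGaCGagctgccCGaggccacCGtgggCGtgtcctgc
Trim14 chr4:46507017-46507316: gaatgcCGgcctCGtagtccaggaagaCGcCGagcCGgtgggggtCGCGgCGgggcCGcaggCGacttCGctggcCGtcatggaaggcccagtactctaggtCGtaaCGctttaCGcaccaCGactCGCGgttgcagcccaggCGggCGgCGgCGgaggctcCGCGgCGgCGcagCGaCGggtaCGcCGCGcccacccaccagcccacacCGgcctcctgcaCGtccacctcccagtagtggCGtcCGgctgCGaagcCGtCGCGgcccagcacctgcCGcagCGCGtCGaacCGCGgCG
Another pair of sequences came from peaks that were poor in CpG. The window in C730002L08Rik, a non-coding RNA gene, held 5 CpG over 300 exonic bases. That in Ssc5d, which encodes a secreted scavenger receptor, held 7 CpG and 209 coding bases.
C730002L08Rik chr19:20535997-20536296: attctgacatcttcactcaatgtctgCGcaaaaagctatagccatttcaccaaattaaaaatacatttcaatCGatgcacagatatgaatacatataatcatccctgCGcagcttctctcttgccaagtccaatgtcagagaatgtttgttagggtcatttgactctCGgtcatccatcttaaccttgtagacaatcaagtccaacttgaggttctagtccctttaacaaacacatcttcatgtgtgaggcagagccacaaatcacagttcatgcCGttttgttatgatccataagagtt
Ssc5d chr7:4943460-4943759: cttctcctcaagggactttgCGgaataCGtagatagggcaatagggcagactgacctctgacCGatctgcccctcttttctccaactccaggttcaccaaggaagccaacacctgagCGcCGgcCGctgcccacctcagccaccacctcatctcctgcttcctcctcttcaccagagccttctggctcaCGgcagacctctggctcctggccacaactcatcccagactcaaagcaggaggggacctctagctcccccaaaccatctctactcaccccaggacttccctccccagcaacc
The observed-to-expected CpG ratio, which corrects the CpG count for the number of C and G, was 0.90 in the window of Fgf23, 0.98 in Klhl31 and 1.13 in Trim14. It was 0.45 in C730002L08Rik and 0.31 in Ssc5d. Over the whole peak, the ratio of the 524 exonic peaks ran from 0 to 1.23, with a median of 0.528.

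Several of the strongest exonic peaks stood in genes whose own promoter carried no peak. Fgf23 encodes a hormone made by bone that lowers blood phosphate. Its last of 3 exons carried a peak of 1147 bases with an enrichment of 20.0, a ratio that the authors gave for each peak. The site had 19.4 in pool J against 20.1 in pool I, and lay 6714 bases from the only annotated start. Klhl31, a kelch-family gene known from muscle, carried a peak of 1316 bases and enrichment 19.1 on its last coding exon, where pool J gave 17.9 and pool I gave 20.1. The nearest peak at any transcript start was 97899 bases away. Kctd4, of the family with the tetramerization domain of potassium channels, had the widest exonic peak, 4574 bases. It covered the whole coding sequence, with an enrichment of 15.3 from both pools together, of 9.56 from pool J and of 18.0 from pool I. Pool J gave a width of 2764 bases there and pool I 5563 bases, and the sequence was poor in CpG, with a ratio of 0.276.

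**Figure D1:**
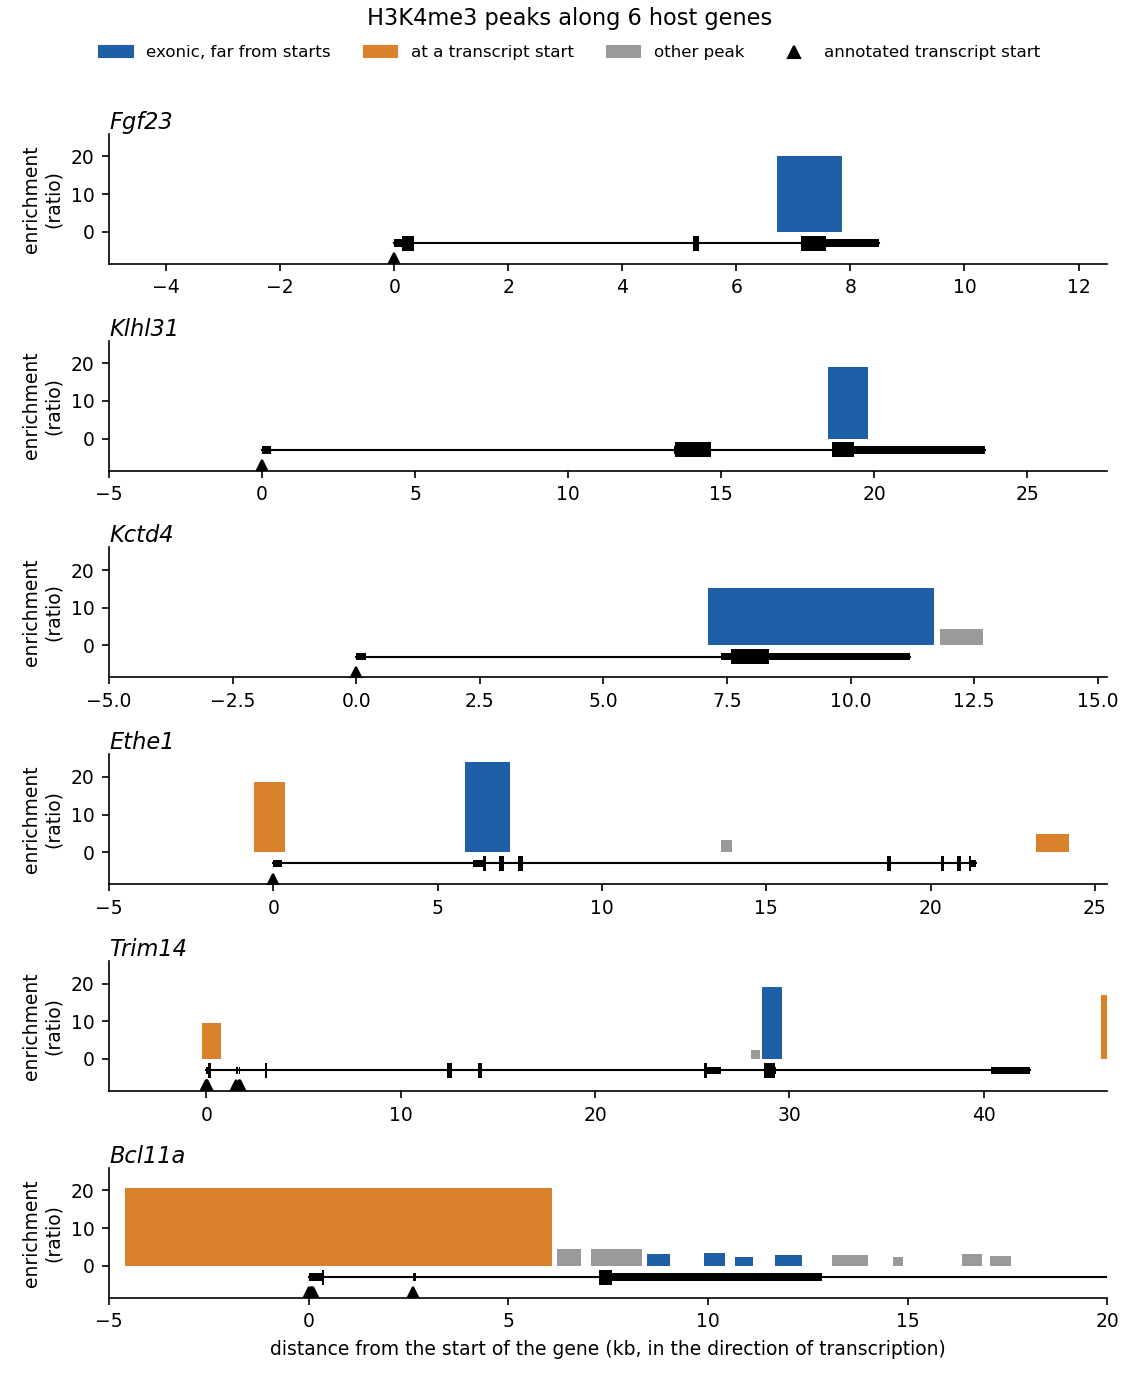
Peaks along 6 host genes. The horizontal axis is the distance in kb from the start of the gene in the direction of transcription, the height of a bar is the enrichment of a peak (ratio), black boxes are exons (tall where coding) and triangles are annotated transcript starts; the Bcl11a panel ends at 20 kb. Fgf23, Klhl31 and Kctd4 carried an exonic peak (20.0, 19.1 and 15.3) and none at their start, Ethe1 and Trim14 carried both, and the 4 exonic peaks of Bcl11a followed a wide peak at its start.

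The exonic peaks were mostly narrow and of low enrichment, with a tail that reached promoter levels. Their median width was 550.5 bases (quartiles 359 and 901, range 188 to 4574) and their median enrichment was 4.31 (quartiles 3.18 and 7.28, range 1.80 to 23.8). Intronic peaks at the same distance from starts, 1982 in number, had medians of 465 bases and 3.64. Intergenic peaks far from starts, of which there were 2917, had medians of 511 bases and 4.42, and the 17464 peaks at transcript starts had 1683.5 bases and 17.5. Exonic peaks were thus wider than intronic ones by a median of 81.5 bases in pool J, and by 112 bases in the other pool, a difference of 96.8 ± 21.6 bases (SD, n = 2 pools). In the replicated list it was 85.5 bases, and 40 when at least 50% of the peak had to be exonic. In median enrichment exonic peaks were higher by 1.03 (pool J) and 0.78 (pool I). Among peaks under 300 bases the exonic and intronic medians in the replicated list were 3.02 and 2.94. They were 3.745 and 3.438 from 300 bases, 5.71 and 4.76 from 600, and 9.14 and 8.64 from 1000. Against intergenic peaks the median enrichment was 0.21 higher in pool J while the difference in pool I was −0.16, so that its sign was not shared by the pools. An exact permutation test over 2 pools cannot reach a p of 0.05, and no test was run; peaks of 1 list are not replicates of a condition.

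A −log10 q of 10 or more was reached by 248 exonic peaks, or 47.3% (Wilson 95% interval 43.1% to 51.6%), where all replicated peaks gave 71.4% and all peaks outside start windows 37.7%. The share was 30.8% among intronic peaks, 48.4% among intergenic peaks and 86.8% at transcript starts. All intervals given here cover counting error only. At the weak end, 16 of the 524 exonic peaks had a q above 0.05, as did 361 of all 25446 replicated peaks. The weakest of the 16 was on the 3′ UTR of Fosb, at enrichment 1.80.

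The exons involved were coding in the main. Coding sequence was overlapped by 332 of the 524 peaks (63.4%, interval 59.2% to 67.4%), and 96 more (18.3%) fell on exons of long non-coding RNA. A further 54 were on 3′ UTRs without coding sequence, 6 on 5′ UTRs, 15 on other exons of coding genes, 7 on exons of pseudogenes and 14 on other exons, all of them of the type that awaits experimental support. The overlapped exon was the last of its transcript for 263 peaks (50.2%), internal for 243, the only one for 17 and the first for 1. Along the host gene, the median peak stood at 85.9% of the way from start to end. The rule bars sequence near starts, so the few first exons and 5′ UTRs and the late position are in part set by it. Positions of exons without a peak are not given for comparison. The peak was wholly exonic in 138 cases, and its summit was inside an exon in 365 (69.7%); 5 peaks had under 10 exonic bases, the least that the rule could admit being 1 base.

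Per length of sequence, summits were denser in exons than in introns at the same distance from starts. Exons outside the windows and over 5000 bases from coding starts came to 54.2 Mb and held 365 summits, or 6.73 per Mb (interval 6.08 to 7.46). The corresponding introns held 2.50 per Mb and intergenic sequence 2.10 per Mb. Coding sequence held 13.7 per Mb (11.9 to 15.7), exons of long non-coding RNA 6.79, 3′ UTRs 3.99 and pseudogene exons 1.21, the last from 3 summits. Repeats can hinder the placing of reads. Inside called peaks the median share of repeat-masked bases was 7.19% for exonic and 8.92% for intronic ones. The repeat share of the exonic, intronic and intergenic sequence searched is not given, and the intergenic length included gaps of the assembly. What part repeats and gaps had in the densities was not tested.

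Exonic peaks held more CpG than intronic ones. The criterion of a CpG island, at least 200 bases with a GC content of 50% or more and a CpG ratio of 0.6 or more, was met by 159 exonic peaks, or 30.3% (interval 26.6% to 34.4%). The background was 33.1% of all replicated peaks and 12.1% of peaks outside start windows. Of the intronic peaks 6.05% met it (interval 5.09% to 7.19%), of the intergenic peaks 13.3%, and of the peaks at starts 42.7%. In pool J the share was 34.1% of exonic against 8.71% of intronic peaks, and in pool I 28.4% against 5.42%, a difference of 24.2 ± 1.75 percentage points (SD, n = 2 pools). The difference was present in each of 4 bands of width. Among peaks under 300 bases it was 22.7% of exonic against 4.28% of intronic peaks, and among those of 1000 bases or more 44.3% against 13.6%. Median CpG ratios were 0.528 in exonic, 0.421 in intronic and 0.479 in intergenic peaks, and 0.597 at starts.

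**Figure D2:**
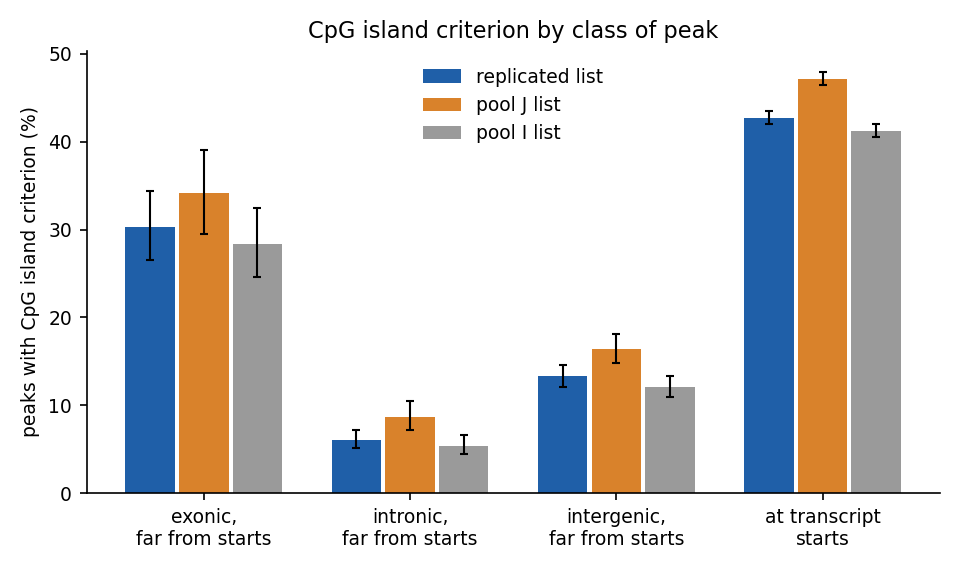
Share of peaks that met the CpG island criterion (vertical axis, percent) by class of peak and list; bars are shares and lines are Wilson 95% intervals for counting error. Exonic peaks stood at 28.4% to 34.1% in the 3 lists, intronic peaks at 5.42% to 8.71%.

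Within a peak the CpG content was higher in the exonic part. In the 264 peaks with at least 100 bases both inside and outside exons, the ratio was higher in the exonic part in 211 (79.9%), with medians of 0.639 in the exonic part and 0.385 in the rest of the same peak. Exons without a peak were not set against their flanks, so whether this is particular to marked exons was not tested. By kind of exon, the criterion was met by 128 of 332 peaks on coding sequence (38.6%), 19 of 96 on exons of long non-coding RNA (19.8%) and 7 of 54 on 3′ UTRs (12.96%). Peaks that met it had a median enrichment of 5.48 and the others 4.00. Among exonic peaks whose −log10 q was 10 or more, Apba1, which encodes an adaptor of synaptic vesicle release, had a CpG ratio of 1.10, and the zinc finger gene Zfp771 had 1.02. Nrg2, a neuregulin ligand of ErbB receptors, had 1.00 on its last coding exon, and with an enrichment of 21.1 was also among the 3 highest. At the other end, 69 peaks (13.2%) had a ratio under 0.3 and a median enrichment of 3.27. Ticam1, an adaptor of Toll-like receptors, was of that kind, with a ratio of 0.289 and an enrichment of 8.56 on its 3′ UTR.

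Seen from the side of the exons, a peak was rare, and its frequency rose with CpG content. Eligible exonic intervals of 200 bases or more numbered 39560, of which 381 (0.963%) carried one of the peaks. By decile of CpG ratio, 0 of 3956 intervals carried one in the lowest decile (counting error allows up to 0.0970%, the upper Wilson bound), 21 (0.531%) in the fifth and 170 (4.30%) in the highest. Of the 1086 intervals that met the island criterion 103 (9.48%) carried a peak, against 278 of the 38474 others (0.723%). The share also moved with length. From 200 to under 500 bases, a range that held 898 of the 1086, 43 (4.79%) carried a peak, against 0.368% without the criterion. In the range from 1000 to under 2000 bases, 23 of 54 intervals with the criterion (42.6%, interval 30.3% to 55.8%) carried a peak, against 59 of 7208 without it (0.819%). The 2 shares from 500 to under 1000 bases were 27.8% and 0.506%, and at 2000 bases or more they were 26.3% (5 of 19, interval 11.8% to 48.8%) and 1.74%.

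**Figure D3:**
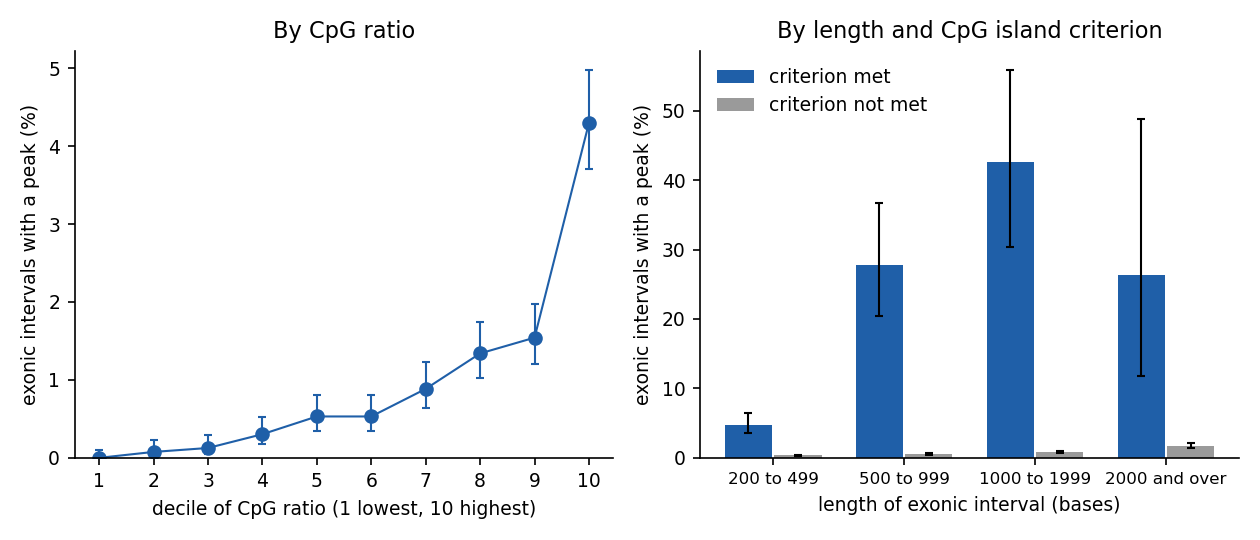
Share of exonic intervals far from starts that carried a peak (vertical axes, percent), by decile of CpG ratio (left) and by length in bases with and without the CpG island criterion (right); lines are Wilson 95% intervals. The share went up to 4.30% in the highest decile, and to 42.6% for intervals of 1000 to under 2000 bases that met the criterion, with 26.3% for the 19 longer ones.

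Exonic peaks met in both single-pool lists were stronger and wider than the rest. The replicated list and its enrichment derive from both pools, so this link is in part built in. A peak of both single-pool lists met 335 of the 524 (63.9%, interval 59.7% to 67.9%), where the background was 80.1% of all replicated peaks and 55.2% of those outside start windows. The share was 49.6% for intronic, 62.8% for intergenic and 91.5% for start peaks. Pool I alone had 104 of the exonic peaks (19.8%), pool J alone 25 (4.77%), and neither list 60 (11.45%). In the same order, intronic peaks gave 25.4%, 5.0% and 20.0%, and intergenic peaks 19.1%, 4.39% and 13.7%. At starts the shares were 4.67%, 1.29% and 2.55%. Peaks of both pools had a median enrichment of 6.20 and a median width of 767 bases, those of pool I alone 3.15 and 342.5, those of pool J alone 3.31 and 348, and those of neither 2.81 and 275.5. Peaks under 300 bases were met in both pools in 4.55% of cases and those of 1000 bases or more in 99.1%. Taken by itself, the pool J list held 372 exonic peaks among 21573 (1.72%) and the pool I list 497 among 24508 (2.03%).

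Over the 335 peaks of both pools the enrichment in pool J followed that in pool I, with a Spearman's rho of 0.858 across peaks, which share their libraries and are not independent replicates. The ratio of pool J to pool I had a median of 0.897, and 298 of the 335 (89.0%) were within 1.5-fold of each other. Fbxw7, a substrate receptor of a ubiquitin ligase, was at the extreme, with 5.36 from pool J and 17.1 from pool I, where the peak was 8660 bases wide and ran into the promoter. In 3 of the 335 a pool's peak reached a start window in this way. Found in pool I alone, the strongest was on Abca4, a retinal lipid transporter, at 6.10 in the replicated list. Found in neither list, the strongest was on Cd47, the ligand of SIRPα, at 4.02.

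**Figure D4:**
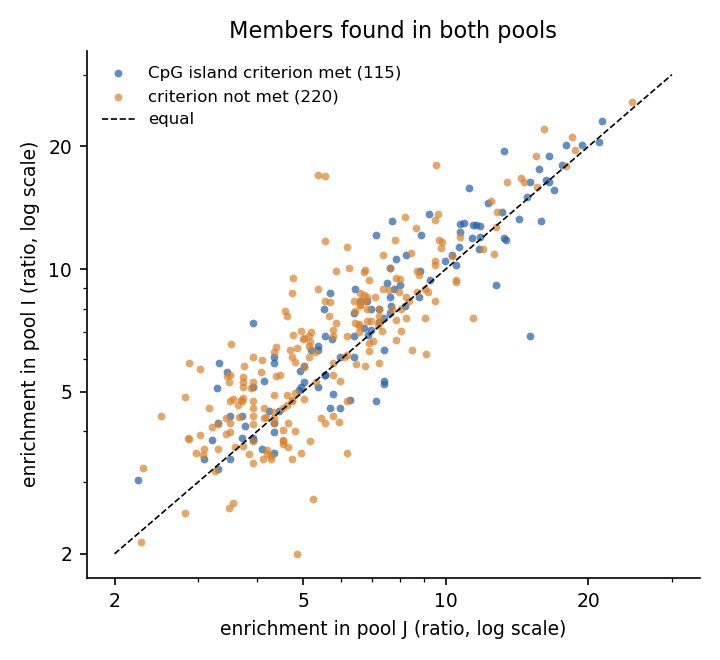
Enrichment of the 335 exonic peaks found in both pools, pool J (horizontal, ratio on a log scale) against pool I (vertical, ratio on a log scale); each point is a peak, coloured by the CpG island criterion (115 met it, 220 did not), and the dashed line marks equal values. Most points lie near the line, and 298 are within 1.5-fold of it.

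Host genes were more often marked at their promoter than protein-coding genes at large, a set not matched to them. The exonic peaks fell in 489 genes, of which 374 were protein-coding, or 1.70% of the 21938 annotated. A promoter peak was present in 299 of those 374 (79.9%, interval 75.6% to 83.7%), against 65.2% of all protein-coding genes. In most of them the promoter was the stronger site. Fam172a had 22.1 at its last coding exon and 34.3 at its promoter, and Sh3pxd2a, the podosome scaffold also known as Tks5, had 19.1 in the gene and 20.6 at the promoter. Prr7, a membrane protein of synapses, had 17.4 and 28.7.

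In 25 of the 331 exonic peaks of marked coding hosts (7.55%) the exonic peak exceeded the promoter, and in 18 of the 25 it did so in each pool, 5 of them with no promoter peak in a pool. Exoc3l2 entered these counts with a pair of neighbouring peaks, at 15.9 and 7.53, and the same pool J value, 15.1, served for both. Ethe1, which encodes the mitochondrial sulfur dioxygenase, had 24.7 at the exonic peak and 19.6 at the promoter in pool J, and 25.7 and 17.6 in pool I; in the replicated list, at 23.8, it was the highest of all 524. Trim14, an adaptor in antiviral signalling, had 13.3 in the exon and 8.04 at the promoter in pool J, and 19.5 and 10.4 in pool I. Zbtb7b, the ThPOK factor of T-cell lineage choice, had 16.1 and 15.9 in pool J, and 22.0 and 18.6 in pool I. Lag3, an immune checkpoint receptor, had 10.4 in the exon against 2.85 at the promoter in pool I, and 9.49 against no promoter peak in pool J. Runx1, a blood cell factor, exceeded its promoter in the replicated list (4.02 against 3.69) but not in pool J (3.71 against 4.95) or pool I (3.84 against 4.72).

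The 76 exonic peaks in 75 coding hosts without a promoter peak had a median enrichment of 5.03, against 4.26 for the 331 with one. The island criterion was met by 36.8% of the 76 (interval 26.9% to 48.1%) and 32.6% of the 331, intervals that overlap. For 71 of the 76 neither pool's list had a peak at the promoter. Beside Fgf23, Klhl31 and Kctd4 they included Gm5737 at 19.4, Snx20, a sorting nexin of leukocytes, at 17.5, and Scnn1a, the alpha subunit of the epithelial sodium channel, at 16.8. Prdm12, a regulator of pain-sensing neurons, was at 16.7, and Mboat4, the enzyme that acylates ghrelin, at 12.2. Lower values were found on Ldb3, a gene of the muscle Z-disc (7.27), and on the coagulation factor genes F12 (7.67) and F5 (6.94). H3K4me3 alone does not show whether any of these exons was transcribed from the peak, and no RNA was measured.

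**Figure D5:**
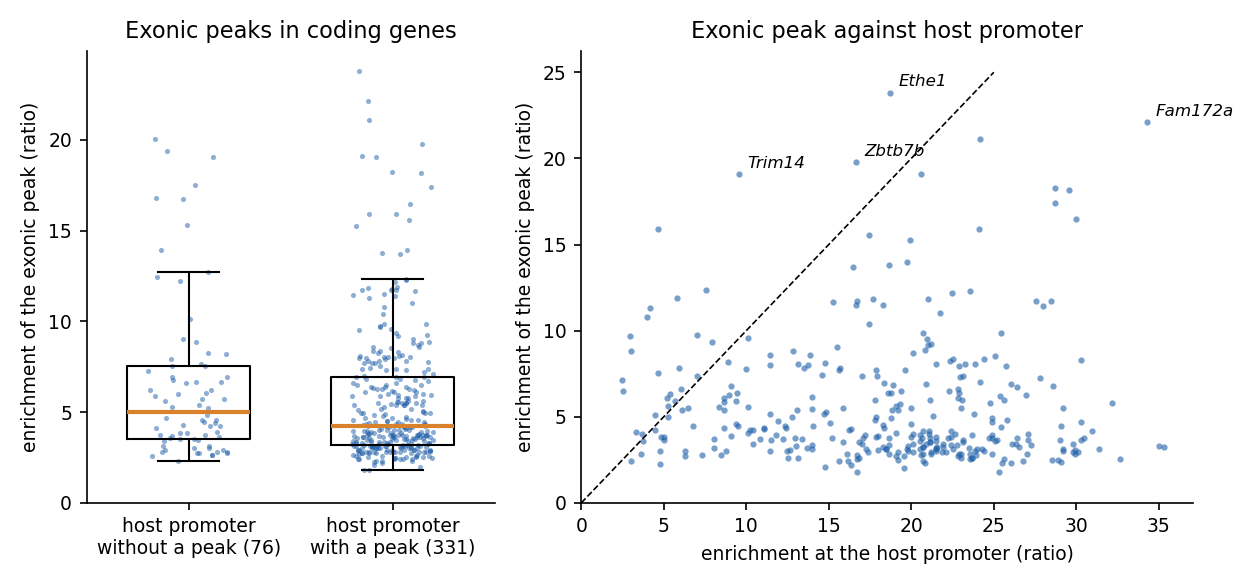
Enrichment of exonic peaks in protein-coding hosts. Left, peaks whose host promoter had no peak (76) and had one (331), with boxes for quartiles and medians of 5.03 and 4.26 and whiskers to 1.5 times the box; right, each exonic peak (vertical, ratio) against its host promoter (horizontal, ratio), where 25 points lie above the dashed line of equal values.

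The distance rule took out most exonic peaks that adjoin a promoter domain, so a low share of such peaks among the 524 is in part set by the rule. When peaks up to 1000 bases apart were joined, 22 of the 524 (4.20%, interval 2.79% to 6.27%) shared a domain with a peak at a start, where 75.0% of all replicated peaks did so, every peak at a start among them. The share was 4.84% for intronic peaks far from starts and 0.686% for intergenic ones. For exonic peaks nearer to coding starts, excluded by the distance rule, it was 43.0%. Bcl11a, a zinc finger repressor expressed in cortical projection neurons, held 4 of the 22 on a long exon, outside its coding part, at enrichments of 3.23, 3.27, 2.41 and 2.83, beside a start peak of 20.7. The transcription factors Zeb2, Pou3f3 and Npas4 and the chemokine gene Cx3cl1 were also in this group. The 22 had a median CpG ratio of 0.294 and the other 502 of 0.531; their median enrichments were 3.32 and 4.38. The median distance from an exonic peak to the nearest start peak was 25388 bases, and 157 of the 524 lay over 50000 bases from one. Among the farthest from any transcript start were Arhgap15, at 177568 bases with an enrichment of 6.64, and Spata16, a spermatogenesis gene, at 172000 bases with 3.63.

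A second annotation placed transcript starts at some of the peaks. RefSeq, which the rule did not use, had a start within 1000 bases of 45 of the 524 (8.59%, interval 6.48% to 11.3%), where the background was 66.0% of all replicated peaks and 10.3% of all those far from starts. Intronic peaks gave 8.78% and intergenic ones 11.6%, and both intervals overlap that of the exonic peaks. In 21 cases the start belonged to the host gene and in 24 to another gene, and 12 rested on a known transcript, the other 33 on computed models. Ethe1 was one of the 12: its exonic peak covers a RefSeq start of Ethe1 itself. Celf4, an RNA-binding regulator of synaptic transcripts, was another, at 12.3. At Prdm2, which encodes a histone methyltransferase, a model start fell inside a peak of 16.5 (pool J 15.5, pool I 15.9), and at Tiam1, an exchange factor of Rac, inside a peak of 3621 bases and 10.4. Both pools held 36 of the 45 and 299 of the other 479 (62.4%), and 22.2% of the 45 met the island criterion against 31.1% of the 479. Fgf23, Klhl31, Kctd4 and Trim14 had no RefSeq start within 1000 bases.

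Multiple exonic peaks in 1 host were unusual, with 30 of 489 hosts holding 2 or more. Tenm3, a teneurin that guides synaptic partner choice, and Bcl11a held 4 each, and Srcin1, an inhibitor of Src kinase at synapses, held 3. The 4 of Tenm3 were spread over separate coding exons, at 8.07, 3.82, 3.17 and 3.14, with 9.48, 3.61, 3.43 and 3.49 in pool I. Pool J had 4.75 for the first and 4.27 for the last of them, and no peak at the other pair.

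Hosts were also counted in gene groups relevant to cortex. Of 20 synaptic genes 3 were hosts (15.0%), against 1.70% of all protein-coding genes: Grin1, the obligatory NMDA receptor subunit, at 2.42, and the postsynaptic scaffolds Shank1 and Shank3 at 3.54 and 2.83. The peak of 3.54 was in neither pool's list, and a stronger one beside it, at 13.8 (pool J 10.9, pool I 13.0), lay on exons of both Shank1 and 1700008O03Rik and was counted under 1700008O03Rik. Of 15 activity-regulated genes 2 were hosts (13.3%), Npas4 at 2.92 and Fosb at 1.80, and of 14 markers of excitatory neurons 1 was, Mef2c at 3.42. None of the lists of pan-neuronal, inhibitory, astrocyte, oligodendrocyte, microglial, imprinted, Hox or replication-dependent histone genes had a host. Collagens gave 4 of 45 (Col15a1 6.10, Col4a3 4.35, Col8a2 3.39, Col12a1 3.01), zinc finger genes 6 of 465, clustered protocadherins 1 of 56, homeobox factors 2 of 65 and olfactory receptors 1 of 1134. No list was tested against the background. The labelled tissue was checked at promoters: the cortical neuron genes Slc17a7 and Tbr1 carried peaks of 18.7 and 19.3, and the liver gene Alb, the heart gene Myh6 and the choroid plexus gene Ttr none. Drd1 and Drd2, taken as striatal markers, carried 15.9 and 3.23.

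Short motifs were counted in 300 bases around each summit, on both strands. The GC box GGGCGG was present in 24.0% of exonic peaks (interval 20.6% to 27.9%), 16.1% of intronic, 22.4% of intergenic and 48.4% of start peaks, and in 39.2% of all peaks. The cAMP response element TGACGTCA was found in 7 exonic peaks (1.34%, interval 0.649% to 2.73%) and in 0.629% of all peaks. Intronic peaks gave 0.555% (0.310% to 0.991%) and intergenic peaks 0.960% (0.665% to 1.38%). Both intervals overlap the exonic one, so no excess is read from the 7 matches. Exonic and intronic shares were 23.9% and 28.1% for the CCAAT box, 6.30% and 8.17% for AP-1, and 23.9% and 21.3% for the E-box. They were 1.72% and 0.706% for NRF1, 0.954% and 0.908% for REST, and 2.86% and 1.82% for the CTCF core. A match describes the letters in these windows and not the binding of a factor.

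Exonic peaks were found on 20 chromosomes and formed 2.06% of the replicated list. Chromosome 11 held 48, or 2.48% of its replicated peaks, and the X held 2 of 789 (0.253%). The highest share was on chromosome 19 (3.52%). The limit of 5000 bases cut through a continuum. Just inside it were F12 at 5026 bases (enrichment 7.67), Lag3 at 5028 (9.67) and Ensa at 5050 (2.86), and just outside Fbxo2 at 4959 (4.36), Nkpd1 at 4959 (6.45) and Pik3r1 at 4957 (2.63). By distance, 180 of the 524 lay from 5000 to 10000 bases from a coding start, with 28.9% meeting the island criterion. The share was 37.8% for the 135 from 10000 to 20000 bases away, 32.5% for the 123 from 20000 to 50000 and 18.6% for the 86 beyond.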

How the data were processed

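H3K4me3 ChIP-seq of 2 pools (4 libraries) was analysed from 4 deposited lists of peaks on mm10, per the labels: the replicated list of both pools, a list per pool, and 1 of the pooled reads, as the text files deposited with the libraries name them. Replicated peaks numbered 25446, of which 24595 were identical to peaks of the pooled reads. Both libraries of a pool shared 1 list, so the pool is the replicate. The authors' enrichment value is a ratio, taken as fold over a control since the labels name a possible control experiment. The deposited −log10 p values were not used, and the deposited −log10 q values served as filters. Aligner, peak caller and read depth: not given in the sources used here. Reads of hybrid animals were placed on mm10, the sequence of 1 parent strain, and how this affects the lists was not tested.

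Exons and transcript starts were those of GENCODE M21; a protein-coding start was the start of any transcript of a protein-coding gene. The host was the gene whose exon a peak overlapped by the most bases, and a peak on several kinds of exon was counted in the order coding sequence, 5′ UTR, 3′ UTR, other exon of a coding gene, long non-coding RNA, pseudogene, other. A promoter was marked when a replicated peak overlapped a window of 1000 bases either side of a start. Overlap between lists required 1 base. Base composition and printed sequences came from RefSeq GRCm38.p6. Shares carry Wilson 95% intervals for counting error. No p-value was computed: with 1 list per pool, differences are given as mean ± SD over 2 pools. Functions were tested on simulated data. Tools were Python 3.11.15, pandas 2.3.3, NumPy 2.4.6, SciPy 1.17.1 and matplotlib 3.10.9.

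Genes named were the 10 exonic peaks of highest enrichment and the 10 widest, hosts with the most peaks, the 3 highest per kind of exon, outside promoter domains, in 1 pool only and in neither, the 3 farthest from any start, the extremes of CpG ratio, hosts in 16 gene lists, and the 3 nearest the limit on each side; not all are printed. Hosts without a promoter peak, hosts below their exonic peak, Fbxw7 beside its width, hosts at RefSeq starts and the printed sequences were chosen after their values were seen. The exonic peaks, gene lists and comparisons were chosen with earlier results of these data known. Alternatives to the strength, list, overlap, windows, distances, gene models, composition and domain gap were tried.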

Additional observations from a re-analysis of the deposited data

How the results depend on the processing

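Of 230 recomputed values 181 stayed within 1.5-fold (counts) or within the 95% interval of the reported value, 6 of them identical to it, among them 4 density ratios that the setting does not enter, and 45 did not. The other 4 changed sign, all in the difference in median enrichment from intergenic peaks, added after seeing the data. It was −0.11 as reported, 0.59 and 0.44 with −log10 q limits of 5 and 10, 0.036 with the summit in an exon, and −0.16 to 0.21 over the single pools. The differences from intronic peaks in width, enrichment and island share kept their sign under every setting run. A −log10 q limit of 10 left 248 exonic peaks, with a median width of 877 bases, a median enrichment of 7.44 (1.14 above intronic peaks), 83.1% in both pools, 68.1% on coding sequence, 39.1% with the island criterion, 2.02% in a promoter domain and 74.1% of hosts marked, and a summit density 4.18 times that of introns. With a −log10 q limit of 5 the median width was 697.5, the median enrichment 5.97 (1.20 above intronic peaks), 77.2% were in both pools, 2.75% were in a promoter domain, and the density ratio was 3.30. With 1 pool left out in turn (the pool J and the pool I list) the ranges were 372 to 497 peaks, median width 649.5 to 660, median enrichment 4.96 to 5.57, coding share 62.6% to 68.0% and density ratio over introns 2.65 to 3.26.

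Counts moved to 297 with 50% of the peak exonic, and to 881, 344 and 209 at distances over 2000, 10000 and 20000 bases. At those distances the share in a promoter domain was 15.7%, 1.45% and 1.44%, and the marked hosts were 84.8% and 87.8% at the longer pair. Over 20000 bases the median width was 505 (35.5 above intronic peaks) and the coding share 56.0%; over 2000 bases the density ratio to intergenic sequence was 3.84. The coding share was 67.5% with start windows of 2500 bases and 81.6% with exons of protein-coding genes. The island share was 43.4% with 50% of the peak exonic, 37.5% with the summit in an exon, 35.3% over 300 bases and 21.6% under the stricter limits of 55% and 0.65; its difference from intronic peaks was 36.6, 30.9 and, under the stricter limits, 18.6 percentage points. No promoter domain held an exonic peak (0%) when only touching peaks were joined. The causes of these shifts were not tested beyond what each setting's construction shows.

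No paired analysis was possible because no result comes from a test; differences taken within each pool are given as mean ± SD. Unknown depth limits all weak peaks: absence from a list is not absence of the mark. A spread over 2 pools rests on 1 difference.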

Other observations

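The 96 exonic peaks on long non-coding RNA genes had a median enrichment of 4.50, a median width of 537.5 bases, and 61 of them (63.5%) were in both pools. A330040F15Rik carried the highest, at 18.0 on the last of 5 exons (pool J 15.5, pool I 19.0), and its promoter had 15.7. Gm42743 had 16.1 on the last of 2 exons (pool J 15.7, pool I 17.6), and 12.3 at its promoter. Some such genes had no promoter peak. Gm26682 had 12.9 over 1770 bases, and C730002L08Rik had 11.0 over 3537 bases, 9.49 by pool J and 10.2 by pool I, with the nearest peak at a start 734312 bases away. For 34 of the 96 (35.4%) the host's promoter carried a peak, against 266 of the 332 exonic peaks on coding sequence (80.1%). A peak has no strand, so an exonic peak on an antisense gene such as Junos (12.8) cannot be assigned to 1 of the overlapping genes.

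On pseudogene exons there were 7 peaks, of which Gm44544 had the highest enrichment, 10.3, with a RefSeq model start of Zfp385c at 270 bases. On exons that await experimental support Gm37033 had 10.7 over 1137 bases, of which 7.04% were exonic.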
